A study of Homo sapiens with 6 samples.

Results

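The S100 genes encode small calcium-binding proteins that work as dimers, each chain carrying a pair of EF-hands, the helix-loop-helix motif that holds a calcium ion. On binding calcium, most S100 dimers expose a surface that docks onto partners such as annexins, cytoskeletal proteins and membrane scaffolds, and some S100 proteins are also secreted and bind cell surface receptors. S100A4 is best known from motile and mesenchymal cells, where it binds non-muscle myosin, while S100A10 is unusual in that it binds annexin A2 without needing calcium.

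The genes followed here were chosen by name as rows of the deposited tables and are S100A2, S100A3, S100A4, S100A6, S100A10, S100A11, S100A13, S100A14, S100A16 and S100P. They are 10 of the 16279 genes in the tables, and 8 of them were among the 13311 genes with enough counts to be tested. The gene ontology terms in the tables gave calcium ion binding to all 10 of them and to 590 genes in all, and they gave RAGE receptor binding to 2 of the 10. The cells were 12Z, an established human epithelial line derived from endometriosis, which the labels give as endometrial epithelial. The group NC was untreated, and the group rhChemerin received recombinant human chemerin, an adipokine, at 10 ng/mL for 48 h. Each group held 3 libraries labelled as biological replicates, all from this line, and p-values measure the spread between such cultures of 1 line. Total counts were 35430881 to 38341643 per library. In the shallowest of them a single count was worth 0.0282 CPM (counts scaled to a library of 1e6).

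The epithelial label was checked against marker genes. Of the keratins, KRT8 was abundant at 748 to 966 FPKM (fragments scaled to transcript length and library total). KRT18 was at 555 to 640 FPKM and KRT19 at 277 to 374 FPKM, but KRT7 only at 1.19 to 2.01 FPKM. EPCAM was at 0.125 to 0.807 FPKM and CDH1, which encodes E-cadherin, at 0.0859 to 0.381 FPKM, whereas the fibroblast collagen gene COL1A1 was at 728 to 1165 FPKM. As RNA, EPCAM and CDH1 were thus very low beside KRT8, KRT18 and KRT19, while MUC1 was at 6.79 to 14.4 FPKM. The epithelial markers CLDN3, CLDN4, CLDN7, ESRP1 and PAX8 reached at most 0.544, 1.31, 0.733, 0.0554 and 1.31 FPKM. By immunoblot the paper detected E-cadherin and MUC1 protein in 12Z cells. Of the epithelial markers 8 of 12 had at least 10 counts in every library, with a summed level of 1599 to 1869 FPKM in NC and 1762 to 1978 FPKM with rhChemerin. All 10 fibroblast markers passed the same rule, with sums of 1742 to 2239 FPKM in NC and 1191 to 2342 FPKM with rhChemerin. Immune markers passed for 2 of 10 and summed to 122 to 172 FPKM in NC and 93.6 to 137 FPKM with rhChemerin, with 4 to 12 counts of PTPRC per library. Endothelial markers passed for 3 of 6 and summed to 1.61 to 2.06 FPKM in NC and 0.991 to 1.42 FPKM with rhChemerin, and TEK had 0 to 1 count. Of the 4 sums only the endothelial one did not overlap between the groups, but a sum is carried by its few abundant genes. Single markers differed more. CD14 was at 2032 to 2787 counts in NC and 379 to 1241 with rhChemerin, and ACTA2 at 2226 to 2788 and 774 to 1632. The fibroblast markers FAP, at 1249 to 1837 and 2204 to 2892 counts, and PDGFRA, at 406 to 498 and 611 to 935, went the other way. Without overlap in CPM, 2 of 10 tested fibroblast markers were higher and 1 lower. Of 10 tested epithelial markers 2 were higher and 3 lower by that rule, against 16.5% higher and 16% lower over all tested genes. The part of these markers in the S100 values was not tested.

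S100A4 was lower, and S100A11 and S100A16 were higher, in every rhChemerin library than in any NC library. Among all tested genes 16.5% were higher and 16% lower without overlap in CPM. The remaining tested S100 genes overlapped between the groups on the scale of the test. None of the 8 passed an adjusted p of 0.05 in edgeR's quasi-likelihood test, which called 0.0301% of all genes tested. By DESeq2, the tool the study used, S100A4 was called lower and S100A11 and S100A16 were called higher at adjusted p under 0.05. It called 3.75% of its genes higher and 5.3% lower. The study also required a log2 change above 1 in size. The DESeq2 change of S100A4 (-1.09) met that rule, and those of S100A11 (0.62) and S100A16 (0.80) did not.

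**Figure D1:**
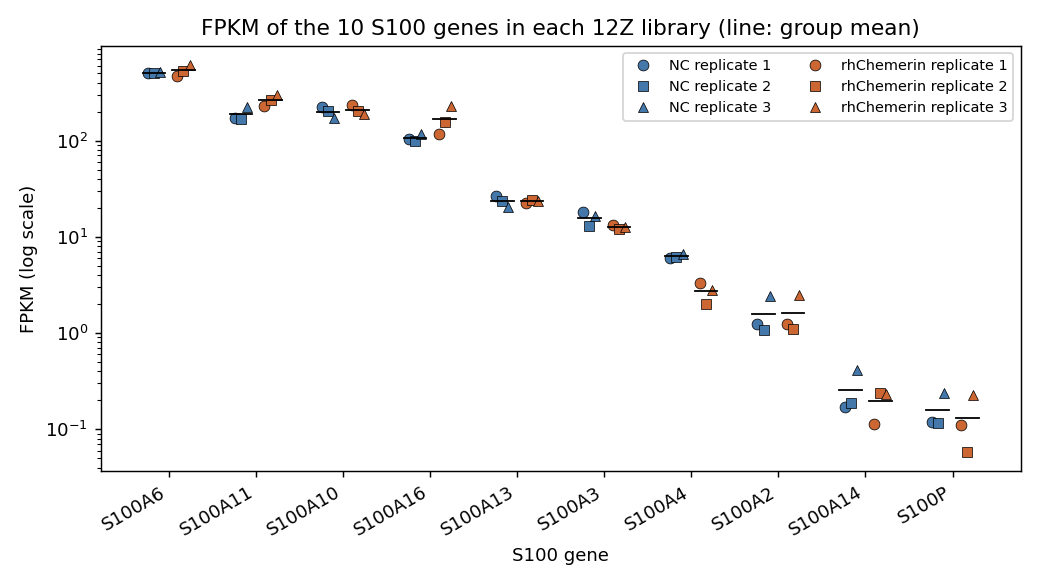
FPKM on a log axis for each of the 10 S100 genes, ordered by mean level, with 1 point per library (3 NC in blue, 3 rhChemerin in orange) and a line at each group mean. S100A6 lay at 473 to 606 FPKM and S100P at 0.0585 to 0.236 FPKM, and the S100A4 points of the groups lay apart.

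All but 1 of these genes lie on the minus strand of chromosome 1, and S100P lies on chromosome 4 (GENCODE 29, build GRCh38, chr4:6693069-6697170, plus strand). The main cluster runs from S100A6 to S100A13 (chr1:153534599-153631360) over 96762 bases and holds 9 annotated genes, 7 of them followed here. S100A10 (chr1:151982915-151994390) and S100A11 (chr1:152032506-152047907) are 38115 bases apart, and 1486691 bases separate S100A11 from S100A6 (chr1:153534599-153536244). Inside the cluster, S100A4 (chr1:153543613-153550136) spans S100A3 (chr1:153547329-153549372) without a shared exon base, and S100A16 (chr1:153606886-153613145) ends 1109 bases from S100A14 (chr1:153614255-153616986). Between S100A10 and S100A13 the annotation holds 89 genes, of which 20 had a row in the tables. Of the genes lying wholly in the interval, the 8 that passed the count filter were the 8 tested S100 genes, and S100A1, described further on, starts inside it and ends beyond S100A13.

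The sequence upstream of the 3 genes whose groups did not overlap is shown because it is the regulatory stretch these transcripts have next to their starts. It was taken from the 250 bases before each RefSeq start (GRCh38.p14, minus strand, 5′ to 3′), leaving out bases that GENCODE 29 places in an exon, and capitals mark matches on either strand to the motifs searched. S100A4 is given for chr1:153545886-153546056, S100A11 for chr1:152037036-152037254 and S100A16 for chr1:153609356-153609605, the nearer to the coding region of its 2 RefSeq starts.
S100A4: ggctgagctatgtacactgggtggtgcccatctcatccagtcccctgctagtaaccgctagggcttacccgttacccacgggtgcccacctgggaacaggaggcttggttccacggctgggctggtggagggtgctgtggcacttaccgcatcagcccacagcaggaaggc
S100A11: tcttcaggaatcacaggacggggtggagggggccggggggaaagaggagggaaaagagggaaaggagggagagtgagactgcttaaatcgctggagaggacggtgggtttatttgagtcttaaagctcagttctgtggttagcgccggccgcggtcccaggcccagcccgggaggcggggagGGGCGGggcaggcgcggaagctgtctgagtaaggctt
S100A16: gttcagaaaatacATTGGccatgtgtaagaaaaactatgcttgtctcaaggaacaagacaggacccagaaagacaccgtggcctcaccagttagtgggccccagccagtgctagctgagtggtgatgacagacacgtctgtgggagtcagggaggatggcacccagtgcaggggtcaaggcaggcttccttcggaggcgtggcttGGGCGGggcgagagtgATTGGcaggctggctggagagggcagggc
The motifs were the TATA box (letters TATAAA), the GC box (letters GGGCGG), the CCAAT box (by those letters), the AP-1 site (letters TGANTCA) and the STAT site (letters TTCNNNGAA). S100A4 held a TATA box 31 to 26 bases before its start, in the exon bases left out above, and no other match, and the other S100A16 start held none of the motifs. S100A11 held a GC box 68 to 63 bases before its start. S100A16 held a GC box 45 to 40 bases before the start shown, and CCAAT boxes at 237 to 233 and 29 to 25 bases. Among all 35116 RefSeq promoters of this length, 10.7% held the TATA box, 42.6% the GC box and 32% the CCAAT box. The AP-1 and STAT letters were each in 6.57% of all promoters and in none of these 3 windows. No motif was shared by the lower gene S100A4 and the higher pair, and the matches are letters in a window only.

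Levels of the S100 genes covered more than 3 orders of magnitude, from S100A6, ranked 63 among the 16279 genes by mean FPKM, to S100P, ranked 12838. S100A6, S100A10, S100A11 and S100A16 together made up 95.1 to 96.9% of the summed FPKM of the 10 genes in each library, and S100A6 alone 43.3 to 49.7%. The sum was 1055, 1020 and 1076 FPKM in the NC libraries and 1091, 1185 and 1368 FPKM in the rhChemerin libraries. The means were 1050 ± 28.2 FPKM (SD, n = 3) in NC and 1215 ± 141 FPKM (SD, n = 3) with rhChemerin. Every rhChemerin library lay above every NC library, the closest at 1091 against 1076 FPKM. The 4 genes that carry this sum have means above 100 FPKM. Among all tested genes above that level, 55.2% were higher without overlap in CPM. As a share of all counts, the 10 genes took 0.0697% ± 0.00220 (SD, n = 3) in NC and 0.0851% ± 0.0130 (SD, n = 3) with rhChemerin. In order of mean FPKM the genes ran S100A6, S100A10, S100A11, S100A16, S100A13, S100A3, S100A4, S100A2, S100A14 and S100P in NC. S100A10 and S100A11 overlapped in both groups, and their means changed places with rhChemerin. S100A16 lay below both in NC, and its range overlapped both with rhChemerin. Within each library it was below S100A11, and it was above S100A10 only in rhChemerin replicate 3 (230 against 190 FPKM). The ranges of S100A4 and S100A2 overlapped with rhChemerin and those of S100A14 and S100P in both groups. Within each library, however, S100A4 was above S100A2 and S100A14 above S100P.

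S100A4, also called metastasin, binds non-muscle myosin IIA and is the gene of this list that the tables' ontology terms place in epithelial to mesenchymal transition. Its FPKM was 6.08, 6.10 and 6.66 in NC and 3.29, 2.01 and 2.81 with rhChemerin. The NC libraries lay within 0.588 FPKM of each other, and the gap down to the highest rhChemerin library was 2.78 FPKM, larger than the range of either group. The counts behind these levels were 121, 126 and 135 in NC against 71, 41 and 59, so S100A4 was a weakly expressed transcript here, ranked 8263. On the log2 scale of edgeR, which rescales library totals by TMM factors, the change was -1.08 (SE 0.28, 95% interval -1.73 to -0.43), or a fold of 0.472, while FPKM carry no such rescaling, so that fitted folds differ somewhat from ratios of FPKM. In these bulk samples fewer cells expressing a gene and less of its RNA per cell cannot be told apart. Its p was 0.00538 before adjustment over the 13311 genes in the edgeR fit across all genes, and its adjusted p was 0.108 in edgeR and 0.00834 in DESeq2.

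S100A11, also called calgizzarin, binds annexin A1 and is linked to membrane repair and keratinocyte growth arrest. Its FPKM was 173, 168 and 226 in NC and 229, 262 and 301 with rhChemerin. The lowest rhChemerin library exceeded the highest NC library by 3.06 FPKM, a gap far narrower than the NC range of 57.2 FPKM. The change was 0.62 on the log2 scale (SE 0.17, 95% interval 0.22 to 1.02), a fold of 1.53. Adjusted p was 0.120 in edgeR and 0.0205 in DESeq2. RefSeq lists 10 pseudogenes named after S100A11, none with a row in the tables. Whether reads from those copies entered the S100A11 counts was not tested.

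S100A16 is an atypical member of the family in which only 1 EF-hand per chain binds calcium well. Its FPKM was 105, 99.9 and 116 in NC and 118, 156 and 230 with rhChemerin. The groups were apart by 1.54 FPKM, the NC libraries spanned 16.2 FPKM and the rhChemerin libraries 112 FPKM, so that the treated libraries differed among themselves much more than the untreated ones. Its share of the summed S100 FPKM was 9.79 to 10.8% in NC and 10.8 to 16.8% with rhChemerin. The fitted change was 0.80 (SE 0.26, 95% interval 0.19 to 1.41) on the log2 scale, a fold of 1.74, with adjusted p 0.146 in edgeR and 0.0286 in DESeq2. Without rhChemerin replicate 3, its highest library, the log2 change was 0.44.

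S100A6, or calcyclin, binds the ubiquitin ligase adaptor CACYBP and was the most abundant transcript of the list. Its FPKM was 501, 507 and 515 in NC and 473, 526 and 606 with rhChemerin, and the treated libraries lay on both sides of the untreated ones. The log2 change was 0.21 (SE 0.13, 95% interval -0.09 to 0.52), with adjusted p 0.358 in edgeR. S100A10, the light chain p11 of the annexin A2 heterotetramer, was at 224, 201 and 173 FPKM in NC and 232, 202 and 190 FPKM with rhChemerin. These ranges overlapped almost wholly. Its log2 change was 0.19 (SE 0.11, 95% interval -0.08 to 0.45), with adjusted p 0.349 in edgeR. Both intervals exclude a doubling and include no change.

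Among the genes of middle level, S100A13, which takes part in the export of fibroblast growth factor 1 and interleukin 1 alpha, was at 26.6, 23.5 and 20.4 FPKM in NC and 22.5, 24.3 and 23.4 FPKM with rhChemerin. Its log2 change of 0.13 (SE 0.12, 95% interval -0.16 to 0.42) turned to -0.0042 when library totals alone were used, so no direction is given for it. S100A3, a zinc-binding protein known from the hair cuticle, was at 17.9, 12.9 and 16.4 FPKM in NC and 13.3, 12.1 and 12.6 FPKM with rhChemerin. The groups overlapped through NC replicate 2, and the log2 change was -0.18 (SE 0.17, 95% interval -0.58 to 0.21). Adjusted p in edgeR was 0.551 for S100A13 and 0.532 for S100A3.

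S100A2, known from basal epithelial cells, was at 1.23, 1.06 and 2.45 FPKM in NC and 1.23, 1.10 and 2.46 FPKM with rhChemerin. Replicate 3 held the highest value in both groups, and the groups were alike in range. The log2 change was 0.17 (SE 0.49, 95% interval -0.99 to 1.32) with adjusted p 0.857 in edgeR, an interval wide enough to hold a loss of near 2-fold and a larger gain. S100A14, an epithelial S100 protein, had 7, 8 and 17 counts in NC and 5, 10 and 10 with rhChemerin. S100P, known from placenta and as a partner of ezrin, had 2, 2 and 4 counts in NC and 2, 1 and 4 with rhChemerin. S100A14 and S100P failed the low-count filter, and at these counts a difference between the groups was not detectable. Without the filter their log2 changes were -0.25 (SE 0.72) and -0.09 (SE 0.97).

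**Figure D2:**
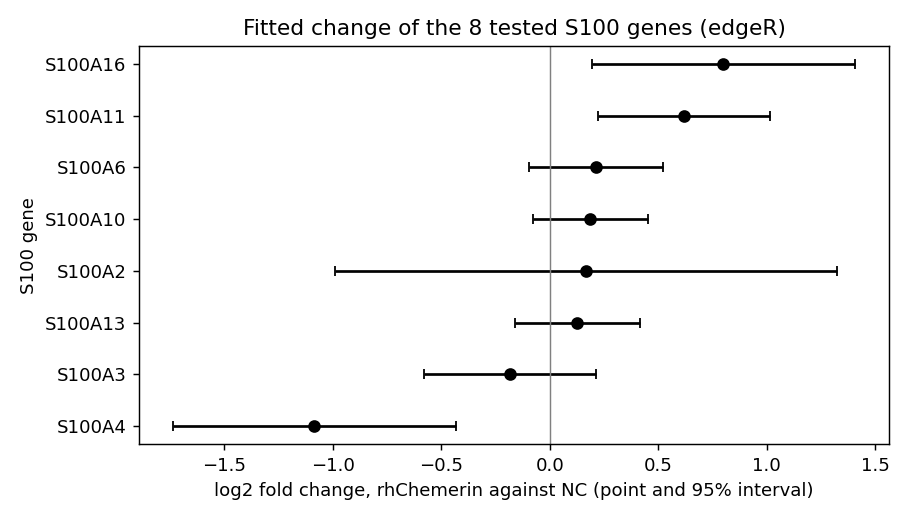
Fitted log2 fold change of rhChemerin against NC for the 8 tested S100 genes, as points with 95% intervals from the edgeR quasi-likelihood fit. The intervals of S100A16, S100A11 and S100A4 lie to 1 side of 0, the last from -1.73 to -0.43, and the other 5 cross it.

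Read as a group, 6 of the 8 tested S100 genes had a fitted change above 0 and 2 below, against 51.7% of all tested genes above 0. Their median log2 change was 0.18 against 0.01 over all genes tested. Without adjustment, 2 genes were higher and 1 lower at p under 0.05 in edgeR, where 11.4% of all tested genes were higher and 11.4% lower by the same rule. Groups did not overlap in CPM for 2 higher and 1 lower gene, against 16.5% higher and 16% lower among all tested genes. By DESeq2 adjusted p, 2 were higher and 1 lower, where 3.75% of its genes were called higher and 5.3% lower. With 8 genes these counts describe the list and are no test of it. The median was 0.038 with library totals alone, where that of all genes was -0.12, and 0.069 without rhChemerin replicate 3.

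Abundance went with direction across the whole table. Of the 542 tested genes with a mean above 100 FPKM, 456 had a fitted change above 0, and 47.6% were higher at p under 0.05 in edgeR, with a median log2 change of 0.25. The 4 S100 genes above 100 FPKM, S100A6, S100A10, S100A11 and S100A16, had a median of 0.42, and 2 of the 4 were higher by that rule. For the 10489 genes at 1 to 100 FPKM the median was 0.03. S100A11 and S100A16 both belong to this class of abundant transcripts, and the part of abundance in their values was not tested.

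**Figure D3:**
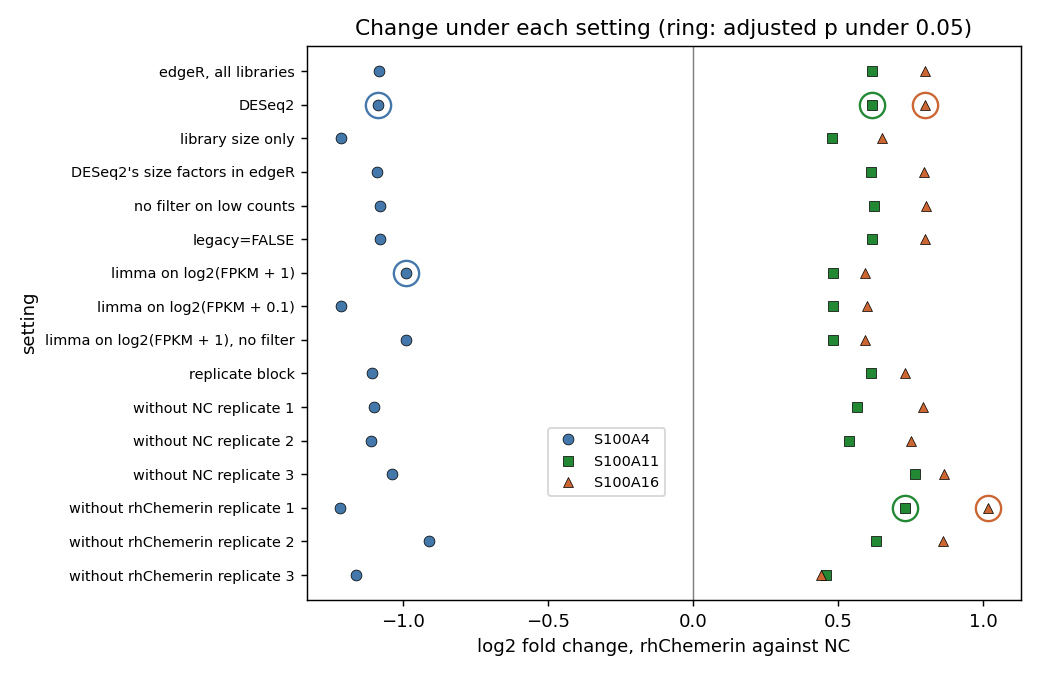
Log2 fold change of S100A4, S100A11 and S100A16 under each setting of the analysis, 1 row per setting, with a ring where adjusted p was under 0.05. S100A4 ranged from -1.22 to -0.91, S100A11 from 0.46 to 0.76 and S100A16 from 0.44 to 1.02, each on 1 side of 0 throughout.

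The direction of S100A4, S100A11 and S100A16 was the same under all 15 other settings tried, whereas the call was not. Adjusted p ranged from 0.00834 to 0.377 for S100A4, from 0.0205 to 0.390 for S100A11 and from 0.0286 to 0.408 for S100A16, by edgeR, DESeq2 or limma. Each was past 0.05 in 2 of the 15. S100A4 passed by DESeq2 and by limma on log2(FPKM + 1). S100A11 and S100A16 passed by DESeq2 and by edgeR without rhChemerin replicate 1.

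The annexins, calcium-dependent membrane-binding proteins that several S100 dimers bridge, were the first partner list. Of 13 annexins 12 were tested, 9 with a fitted change above 0, against 51.7% of all tested genes. The median log2 change of the annexins was 0.22. Without adjustment 7 were higher and 1 lower at p under 0.05 in edgeR, none passed adjustment, and 3 were called higher by DESeq2. Over all tested genes these shares were 11.4% higher and 11.4% lower at that p and 3.75% higher by DESeq2, and 47.6% of those above 100 FPKM were higher at that p. ANXA2, the partner of S100A10, was at 219, 193 and 208 FPKM in NC and 304, 323 and 355 FPKM with rhChemerin. Every treated library lay well above the untreated ones, by at least 85.4 FPKM. Its log2 change was 0.80 (SE 0.13), with adjusted p 0.0707 in edgeR and 2.01e-06 in DESeq2. ANXA5, the phosphatidylserine-binding annexin, was at 144, 126 and 126 FPKM in NC and 179, 188 and 215 FPKM with rhChemerin, a log2 change of 0.69 (SE 0.13) with adjusted p 0.0752 in edgeR and 2.94e-04 in DESeq2. ANXA10 spanned 15, 25 and 86 counts in NC and 50, 616 and 1052 with rhChemerin. These groups overlapped despite a log2 change of 3.90 (SE 1.11, adjusted p 0.125 in edgeR and 0.0251 in DESeq2). That change was 4.97 without NC replicate 3, 3.07 without rhChemerin replicate 3 and 2.18 by limma on log2(FPKM + 1).

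ANXA1, the partner of S100A11, was at 221, 202 and 206 FPKM in NC and 314, 226 and 217 FPKM with rhChemerin. Its high value came from rhChemerin replicate 1, the library in which S100A11 was lowest of the treated group. Its log2 change was 0.39 (SE 0.13), with adjusted p 0.152 in edgeR and 0.0731 in DESeq2. ANXA3 had lower values, at 37.0, 29.8 and 28.9 FPKM in NC and 27.3, 23.0 and 19.3 FPKM with rhChemerin, with adjusted p 0.210 in edgeR. ANXA9 and ANXA8 overlapped between the groups, with adjusted p 0.398 and 0.973 in edgeR.

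**Figure D4:**
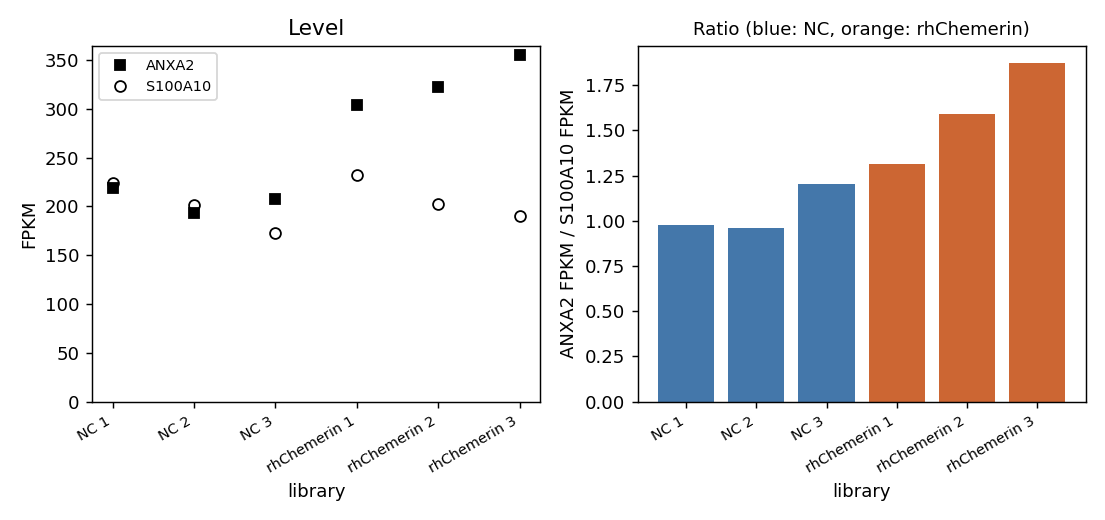
Left, FPKM of ANXA2 (squares) and S100A10 (open circles) in the 6 libraries. Right, their ratio per library as bars from 0, in blue for NC and orange for rhChemerin, where the NC ratios were 0.957 to 1.20 and the rhChemerin ratios 1.31 to 1.87.

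Because annexin A2 and S100A10 form 1 complex, their levels were set against each other within each library, a pair chosen, like the other 4 pairs computed, after the values had been seen. The ratio of ANXA2 to S100A10 FPKM was 0.977, 0.957 and 1.20 in NC and 1.31, 1.59 and 1.87 with rhChemerin. The means were 1.05 ± 0.137 (SD, n = 3) and 1.59 ± 0.281 (SD, n = 3), and the groups did not overlap. An exact two-sided permutation test gave p = 0.1, the smallest that 3 against 3 libraries allow, or 0.1667 adjusted over the 5 pairs. That adjustment does not allow for the choice of pairs after the values were seen. ANXA2 alone already separated the groups, so its ratio to S100A10 is not separate evidence. The ratio lay above all NC values in 3 of 3 rhChemerin libraries. The ratio of S100A4 to its neighbour S100A3 was 0.406 ± 0.0660 (SD, n = 3) in NC and 0.212 ± 0.0417 (SD, n = 3) with rhChemerin, also without overlap and with an exact permutation p of 0.1, or 0.1667 adjusted. S100A6 over S100A4 was 82.4, 83.1 and 77.3 in NC and 143, 262 and 216 with rhChemerin, with the same exact permutation p. S100A4 is in both of these ratios, so they are not separate evidence. S100A11 over S100A10 (0.972 ± 0.291 in NC, 1.29 ± 0.299 with rhChemerin, SD, n = 3) and S100A16 over S100A10 (0.545 ± 0.111 and 0.830 ± 0.357) overlapped, with exact permutation p of 0.3 and 0.2, or 0.3 and 0.25 adjusted.

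Of the other S100 partners, 20 of 26 were tested, with a median log2 change of 0.20. A fitted change above 0 was found for 13 of them, against 51.7% of all tested genes. Without adjustment 7 were higher and 1 lower at p under 0.05 in edgeR, and DESeq2 called 4 higher and 1 lower. Over all tested genes these shares were 11.4% in each direction, and 3.75% higher and 5.3% lower by DESeq2. Of the 542 tested genes above 100 FPKM, 47.6% were higher at that p in edgeR, and DESeq2 called 141 higher. AHNAK, the giant scaffold that binds the S100A10 and annexin A2 complex, was at 102, 93.1 and 78.6 FPKM in NC and 118, 119 and 123 FPKM with rhChemerin (log2 change 0.53, adjusted p 0.108 in edgeR and 0.00487 in DESeq2). IQGAP1, a scaffold of the actin cortex, was at 85.8, 82.5 and 75.7 FPKM and then 105, 104 and 106 FPKM, with adjusted p 0.0752 in edgeR and 2.60e-04 in DESeq2. Both lists of treated values were tight and lay above all untreated ones. CTSB, cathepsin B, had a log2 change of 0.43 (adjusted p 0.110 in edgeR and 0.00909 in DESeq2).

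ASIC1, an acid-sensing channel that S100A10 carries to the membrane, had the lower values in this list, at 15.6, 14.3 and 16.4 FPKM in NC and 10.7, 9.95 and 6.57 FPKM with rhChemerin (adjusted p 0.102 in edgeR and 0.00690 in DESeq2). CACYBP, the partner of S100A6, was at 33.5, 32.7 and 35.0 FPKM in NC and 35.6, 40.5 and 53.0 FPKM with rhChemerin, with adjusted p 0.171 in edgeR. MYH9, the myosin that S100A4 binds, was at 387, 417 and 487 FPKM in NC and 365, 372 and 525 FPKM with rhChemerin, and its direction turned with the scaling. EZR, which encodes ezrin, was at 143, 127 and 132 FPKM in NC and 160, 138 and 155 FPKM with rhChemerin (adjusted p 0.159 in edgeR). S100PBP, named for binding S100P, had a fitted log2 change of -0.24, with groups that overlapped in TMM-scaled CPM but not in FPKM, at adjusted p 0.329 in edgeR.

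Receptors that extracellular S100 proteins can bind gave 5 tested genes of 6, with a median log2 change of 0.05. At p under 0.05 without adjustment in edgeR 1 was higher, beside 11.4% of all tested genes, and DESeq2 called 1 higher, beside 3.75%. AGER, which encodes RAGE, was at 4.93, 5.82 and 5.07 FPKM in NC and 4.82, 5.65 and 3.95 FPKM with rhChemerin (adjusted p 0.980 in edgeR). ALCAM, a cell adhesion molecule, was at 13.7, 15.3 and 15.3 FPKM in NC and 16.6, 18.1 and 18.6 FPKM with rhChemerin, with adjusted p 0.108 in edgeR and 0.0260 in DESeq2. BSG had a log2 change of 0.18 and adjusted p of 0.246 in edgeR, while NPTN had an adjusted p of 0.690 and TLR4 only 3 to 18 counts.

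Other EF-hand genes, such as calpains and reticulocalbins, served as a comparison outside the family. Of 27 such genes 24 were tested, with a median of 0.16, close to the 0.18 of the S100 genes. A fitted change above 0 was found for 20, against 51.7% of all tested genes and 84.1% of those above 100 FPKM. Without adjustment 8 were higher and 1 lower at p under 0.05 in edgeR, and DESeq2 called 5 higher. The same shares over all genes were 11.4% in each direction and 3.75% higher by DESeq2. Among the 542 tested genes above 100 FPKM, 47.6% were higher at that p in edgeR, and DESeq2 called 141 higher. CAPN1 and CAPNS1, the large and small subunits of mu-calpain, had log2 changes of 0.45 and 0.40, with adjusted p 0.102 and 0.103 in edgeR and 0.0127 and 0.00889 in DESeq2. RCN3, a reticulocalbin of the endoplasmic reticulum, had -0.53 and GCA, or grancalcin, had -0.69, with adjusted p 0.201 and 0.256 in edgeR. RCN1 had a log2 change of -0.09 and an adjusted p of 0.667 in edgeR.

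**Figure D5:**
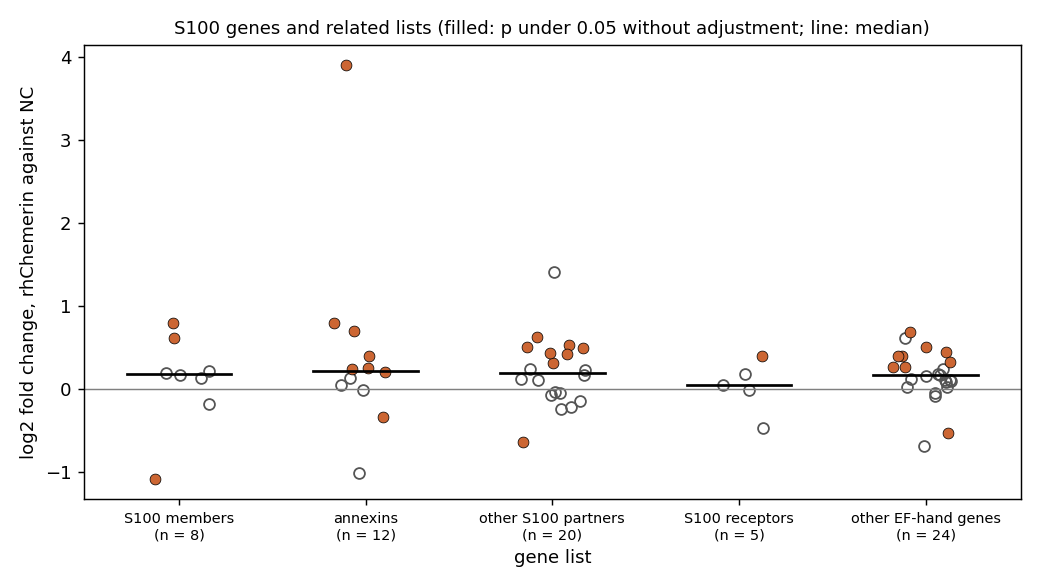
Log2 fold change of each tested gene in the S100 list and the 4 related lists, filled where p was under 0.05 without adjustment in edgeR, with a line at each median. The medians were 0.18 for the S100 genes, 0.22 for annexins, 0.20 for other partners, 0.05 for receptors and 0.16 for other EF-hand genes.

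S100 genes outside the list were scarcely present. S100A1, known from muscle, had 21, 17 and 22 counts in NC and 0, 6 and 8 with rhChemerin, and these groups did not overlap. Its log2 change was -1.97 (SE 0.84), with adjusted p 0.219 in edgeR and 0.198 in DESeq2. S100A1 shares 235 exon bases with S100A13 on the opposite strand, and whether the counting used strand is not given in the sources used here, so reads there cannot be told apart. S100A5 had 1, 13 and 10 counts in NC and 2, 1 and 8 with rhChemerin. S100A7 had at most 4 counts and S100B at most 1 in any library.

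Patterns over the 6 libraries were compared by the root mean square difference of log2 CPM, each gene centred on its own NC mean, among 13310 other genes. Those most like S100A4 were PNMA6A at 0.0739, ATOH8 at 0.0773 and SPTB at 0.137, while the nearest S100 gene, S100A3, ranked 3011. Those most like S100A6 were UMPS at 0.0144, RBM8A at 0.0192 and RPL7L1 at 0.0207, with S100A13 ranked 2604. This difference also counts the size of a change, so it does not compare shape alone. By this measure no S100 gene was a near neighbour of either gene. In the rhChemerin libraries the centred values of S100A6, S100A11, S100A13 and S100A16 rose from replicate 1 to 3. The values of S100A2, S100A3, S100A4 and S100A10 did not rise in that order.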

How the data were processed

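RNA-seq of 6 libraries (3 NC, 3 rhChemerin) was analysed from the deposited gene tables. Per the submitters' processing notes, the authors trimmed reads with fastp, aligned them to GRCh38.p13 with HISAT2 and counted them with HTSeq, which gave the deposited counts, and the authors' FPKM are those counts per transcript length and library total. The annotation release and strand setting are not given in the sources used here. Here counts were tested in R 4.3.3 with edgeR 4.0.16 (filterByExpr, minimum count 10, TMM, quasi-likelihood F test, Benjamini-Hochberg over 13311 genes). SE is the log2 change over the root of F. DESeq2 1.42.0 and limma 3.58.1 on log2 FPKM, with a pseudocount of 1 or 0.1, were alternatives, beside other scalings, no filter, a replicate block and leaving out each library. Scripts were tested on simulated data. The S100 genes and lists were chosen with earlier results of these data known. Named genes were all S100 genes with a row, known partners, and per list the 3 genes of smallest p in each direction, some of which are not reported here. Same-numbered libraries of the 2 groups correlated at 0.241, 0.00147 and 0.247 in their deviations, and differently numbered ones at -0.306 to 0.106. S100 genes without a row in the deposited tables, among them S100A8 and S100A9, could not be analysed here.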

Additional observations from a re-analysis of the deposited data

How the results depend on the processing

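The count of S100 genes past an adjusted p of 0.05 was 0 by edgeR, 3 by DESeq2 and 1 by limma on log2(FPKM + 1), and 0 to 2 when 1 library was left out, the 2 without rhChemerin replicate 1. Non-overlapping S100 genes numbered 3, and 3 to 5 with a library left out, the 5 without NC replicate 1, where the share over all tested genes was 41.5% in place of 32.5%. Their median log2 change of 0.18 was 0.037 by limma on log2(FPKM + 1), with or without a filter, 0.041 on log2(FPKM + 0.1), 0.038 with library totals alone and 0.069 to 0.25 with a library left out, the 0.069 without rhChemerin replicate 3. Genes of the related lists past the threshold numbered 0 by edgeR, 14 by DESeq2, 1 by limma on log2(FPKM + 1) and 0 to 9 with a library left out, 9 without rhChemerin replicate 1 and 4 without rhChemerin replicate 3. Over all genes, calls were 4 by edgeR, 1302 by DESeq2, 179 by limma on log2(FPKM + 1), 23 by limma on log2(FPKM + 0.1), 12 by limma without a filter, 17 without a count filter, 15 with legacy=FALSE, 1 under the replicate block, 844 without rhChemerin replicate 1, 415 without rhChemerin replicate 3 and 0 without any 1 of the other 4 libraries, where 1666 to 2190 genes had p under 0.05. Scaling by library totals alone put the median change over all tested genes at -0.12, S100A13 at -0.0042, MYH9 (0.11 by edgeR) at -0.033 and NPTN (0.05) at -0.079. MYH9 and NPTN were at -0.047 and -0.078 by limma on log2(FPKM + 1), filtered or not, and at -0.048 and -0.079 on log2(FPKM + 0.1). With a library left out, MYH9 ranged from -0.14 to 0.22, ANXA8 from -0.21 to 0.10, S100A2 from -0.35 to 0.63, AGER from -0.14 to 0.073 and RCN1 from -0.16 to 0.036. The correlations above do not settle whether the library numbers pair the samples. The replicate block left 0 S100 genes past the threshold and the same 3 at p under 0.05. Of 540 values of single genes under the alternatives, 492 held their direction and side of the threshold, 29 newly passed it and 19 changed sign. The cause was not tested. Counts under about 10 per library, as in S100A14 and S100P, limit what can be seen.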
